A study of Arabidopsis thaliana with 28 samples.

Results

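Roots of Arabidopsis thaliana seedlings kept for 2 h in darkness under 4% oxygen were compared with roots kept for 2 h in darkness under 21% oxygen, the oxygen level of air. The comparison rests on 5 of the 28 arrays in the series, chosen by their titles: 2 arrays at 4% oxygen (replicate letters D and F) and 3 arrays at 21% oxygen (letters D, E and F). Each array holds the total RNA of 1 root sample, labelled with biotin. The other arrays cover 1% and 8% oxygen and durations of 0.5 and 48 h, also in groups of 2 or 3.

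Seedlings in every group were untransformed plants of the ecotype given as col2. They grew on vertical agar with half-strength MS medium and 1% sucrose, in days of 12 h light and 12 h dark at 22 °C, with the roots lying on the agar surface. Treatment began 10 days after germination, while another label calls the seedlings 2 weeks old. All groups shared the darkness, the gas stream over the plates and 350 ppm CO2, with nitrogen making up the balance, so that 4% and 21% differed by label only in oxygen. Nothing in the labels says whether arrays of a group came from separate plants or cultures. The p-values therefore measure only the spread between samples within groups, which may be technical. In the main fit that spread was estimated over all 28 arrays, not from the 5 compared here alone. In whole roots, fewer cells of a type and less RNA per cell cannot be told apart.

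Plant cells sense oxygen through the N-degron pathway. Plant cysteine oxidases use oxygen to mark group VII ERF transcription factors for breakdown, and when oxygen falls these factors persist and switch on a conserved set of genes. Some of the set serve fermentation, which regenerates NAD+ from pyruvate when respiration slows. In fermentation, pyruvate decarboxylase and alcohol dehydrogenase make ethanol, and lactate dehydrogenase makes lactate. In Arabidopsis the set also holds genes for transcriptional feedback, calcium binding and many proteins with no assigned role.

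Each value is the MAS5 signal of a probe set, a brightness on a linear scale that the authors brought to the same trimmed mean of 100 on every array, and differences are given on the scale of log2(signal + 6). Of the 22810 probe sets, 13513 were annotated to a single gene and stood for 13356 genes. Most defining markers of root tissue had no probe set annotated to them alone, and 8730 probe sets had no gene named in the annotation used. The root hair expansins EXPA7 and EXPA18 had a summed signal of 195.7 to 197.0 at 4% and 182.8 to 241.4 at 21%, and the cortex marker AT1G62500 had 28.1 and 33.6 against 9.44 to 21.6. Of 15 leaf genes 2 had an annotated probe set, with summed signals of 80 and 137.3 at 4% against 81.6 to 204.8 at 21%. No endodermis, stele or root tip marker could be read through this annotation.

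The D arrays stood apart from the E and F arrays at both oxygen levels. Over all genes on the log2 scale, the 4% D array correlated with the 21% D array at 0.9834 and with the 4% F array at 0.9671, and the 4% F array correlated with the 21% F array at 0.9842. The D arrays had a 98th percentile signal of 1038.4 at 4% and 1027.7 at 21%, against 1161.0 at 4% and 1163.9 to 1211.4 at 21% on the E and F arrays. Between the D and F arrays, 150 genes (1.12%) were higher in D by more than 1 on the log2 scale at both oxygen levels. Another 211 genes (1.58%) were lower in D by more than 1 at both. By the same cut, 39 genes (0.292%) were higher and 5 (0.0374%) lower at 4% than at 21% in both D and F. One of the genes lower in D was GI, a circadian clock gene, with signals at 4% of 8.11 (D) and 71.6 (F), against 13.2 (D), 113.2 (E) and 54.6 (F) at 21%. What the letters stand for is not given in the labels.

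Low oxygen for 2 h raised 17 genes and lowered none past an adjusted p of 0.05, which is 0.127% of the genes tested (limma with Benjamini-Hochberg adjustment over all probe sets annotated to a single gene). As folds of signal + 6 the increases ran from 2.24 in AT4G30380 to 53.7 in AT5G10040. The added 6 makes these folds smaller than the ratio of the signals where air signals are low: the mean signals were 8.72 at 4% against 0.397 in air in AT4G30380 and 706.6 against 7.33 in AT5G10040. They included pyruvate decarboxylase PDC2, the lactate dehydrogenase gene AT4G17260, the transcriptional regulator HRA1, the calmodulin-like gene CML38 and the uncharacterised gene AT5G10040, which had the largest difference of the 17. In each of the 17 genes both 4% arrays lay above all 3 air arrays. The 17 were chosen by a test of these same arrays, which favours this order. Among all genes it was found in 6.9%, and the reverse order in 5.59%. At an unadjusted p under 0.05, 111 genes were higher (0.831%) and 38 lower (0.285%) at 4%, together 1.12% of the genes. The median difference over all genes was 0.02. This test did not use the letters as pairs. With the letter as a block in limma, 27 genes were higher at 4%, including all 17, and 1 was lower.

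**Figure D1:**
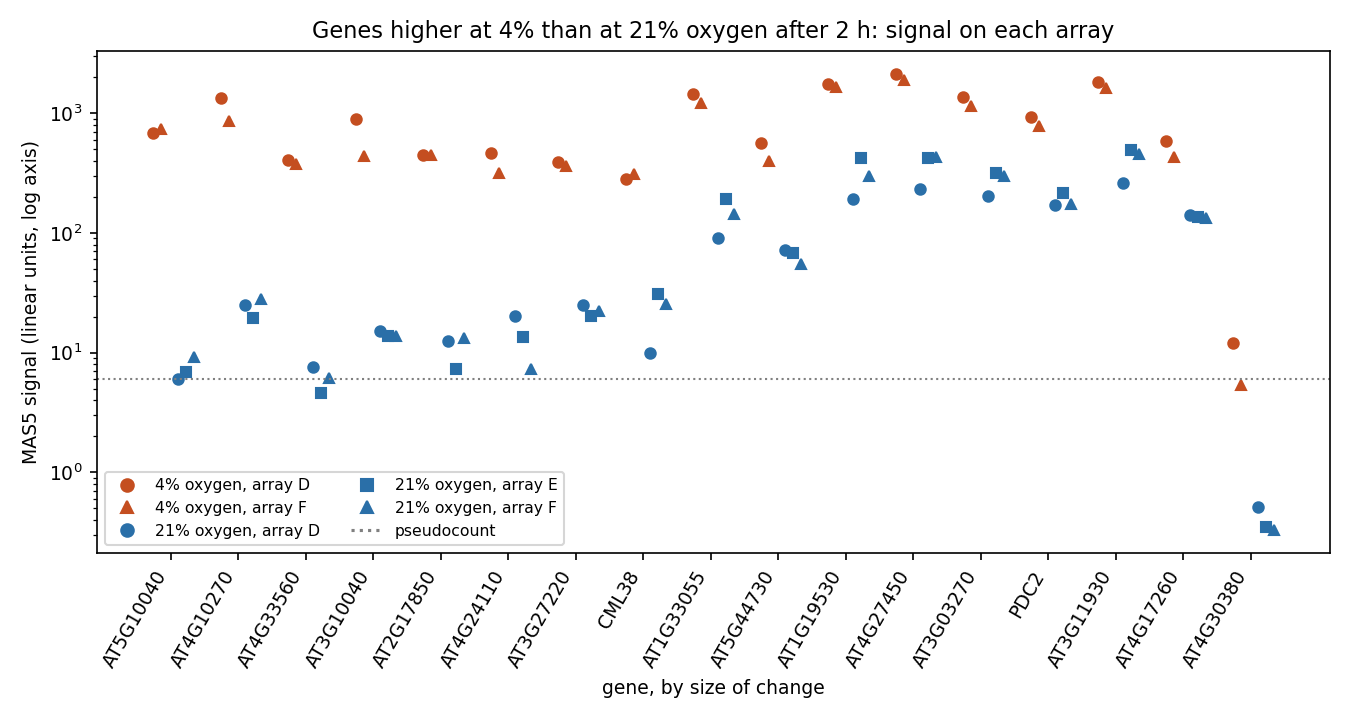
MAS5 signal (log axis) of the 17 genes that rose, on the 4% arrays D and F (orange, left in each column) and the 21% arrays D, E and F (blue, right). In every gene the orange points lie above the blue ones, and the air signals of AT5G10040, AT4G33560 and AT4G30380 lie near or below the pseudocount of 6 (dotted line).

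Within the letters, the 17 genes differed by 1.48 to 5.84 in pair D and by 0.84 to 5.61 in pair F. The difference was larger within D in 14 genes and within F in 3, which were AT4G33560, AT4G24110 and AT3G27220. Among all genes, 39 were higher by more than 1 in both pairs (0.292%) and 5 were lower by more than 1 in both (0.0374%). Of those 39 genes, 16 passed the adjusted test. A single pair held more genes past 1 in each direction: 86 higher (0.644%) and 63 lower (0.472%) within D, and 73 higher (0.547%) and 88 lower (0.659%) within F.

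**Figure D2:**
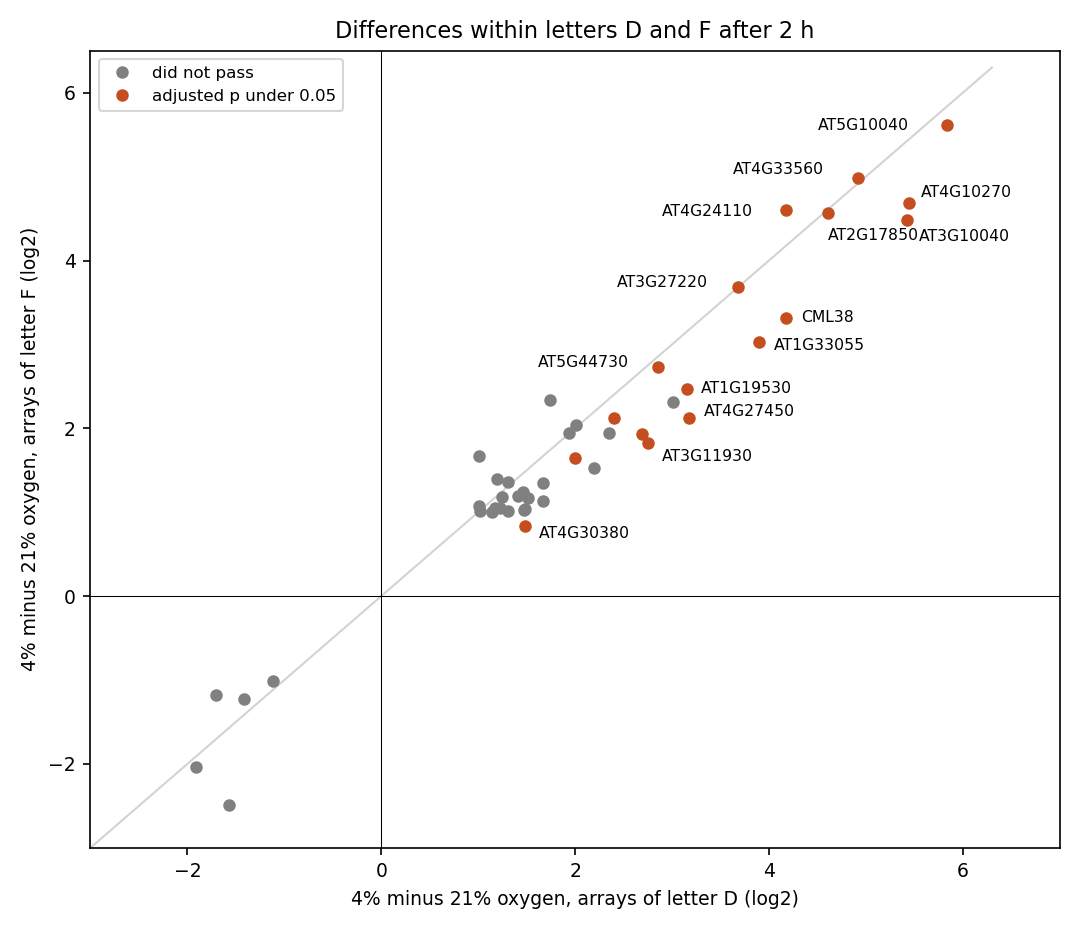
Difference between 4% and 21% oxygen on the log2 scale within letter D (horizontal) and within letter F (vertical), for genes past 1 in the same direction in both pairs and for the genes that rose. The line marks equal differences, and 14 of the 17 orange points lie below it.

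The strength of these calls depended on single arrays. AT5G10040, AT4G33560, AT3G27220, AT5G44730, AT4G27450 and AT4G17260 passed with each of the 5 arrays left out in turn. Without the 4% array D, 7 genes passed, 6 of them among the 17. Without the 4% array F, 10 passed, all among the 17, and without the air arrays D, E or F the counts were 12, 16 and 14. When a 4% array is left out, the remaining one is assumed to vary like the other groups. In a fit of the 5 arrays alone 10 genes passed, 9 of them among the 17, and the 8 lost were AT1G19530, AT1G33055, HRU1, AT3G11930, CML38, AT4G30380, AT4G27450 (adjusted p = 0.128) and AT4G17260 (0.0574). AT1G33055, HRU1 and CML38 lost their calls with median centring, CML38 with quantile normalization, AT1G33055 without the intensity trend, and AT4G30380 in the fit of the 2 h arrays alone and after the filter on dim genes, which removed it. No gene among the 17 changed direction under these settings.

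Of 22 genes listed for oxygen sensing and its targets, 2, HRA1 and HRU1, had probe sets annotated to them alone. They are too few to describe that list, and both rose. HRA1 (AT3G10040) is a trihelix transcription regulator that binds group VII ERF proteins and dampens their activity. At 4% oxygen its signals were 894.4 (D) and 437.3 (F), compared with 15.1 (D), 13.7 (E) and 13.9 (F) in air. The 3 air arrays were nearly alike, while the 4% arrays lay far above them and far apart. The difference was 4.97 ± 0.701 (SE, adjusted p = 0.00123), with 5.42 within D and 4.48 within F. Without the 4% array D it was 4.45, with an adjusted p of 0.105.

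HRU1 (AT3G03270) encodes a universal stress protein linked to hydrogen peroxide signalling under low oxygen. It had signals of 1354 and 1151 at 4%, against 204.3, 318.7 and 297.3 in air. The groups did not overlap, and the air array D was the lowest of the 5. HRU1 rose by 2.19 ± 0.355 (adjusted p = 0.00516), with adjusted p of 0.21 without the 4% array D, 0.0836 without the 4% array F, 0.0517 without the air array D and 0.0562 with median centring. AT3G11930, another gene of the universal stress protein family, had 1804 and 1632 at 4% against 263.4, 488.4 and 455.5 in air. It rose by 2.13 ± 0.322 (adjusted p = 0.00244), and its adjusted p was 0.108 and 0.0548 without the 4% arrays D and F.

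Fermentation was represented by 3 of 10 listed genes, and 2 of the 3 rose, against 0.127% of all genes. The rest of the list, including the alcohol dehydrogenase gene ADH1 and PDC1, was not read, so their response is unknown. PDC2 (AT5G54960) encodes a pyruvate decarboxylase, which turns pyruvate into acetaldehyde on the way to ethanol. It had signals of 924.5 and 780.9 at 4%, against 170.2, 217.4 and 175.0 in air. All 4% arrays were above all air arrays by a wide margin. The difference was 2.15 ± 0.387 (adjusted p = 0.0171), but the adjusted p was 0.471 without the 4% array D, 0.198 without the 4% array F, 0.112 without the air array D and 0.0999 without the air array F.

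AT4G17260 encodes the lactate dehydrogenase that makes lactate from pyruvate. Its signals were 581.8 and 433.3 at 4%, against 141.0, 135.4 and 134.3 in air. The air arrays were nearly alike, and the 4% arrays stood clear of them. It rose by 1.83 ± 0.198 (adjusted p = 5.2e-05), the smallest SE but 1 among the 17 genes, and passed with any of the 5 arrays left out, but not in the fit of the 5 arrays alone (adjusted p = 0.0574). ALDH2C4, an aldehyde dehydrogenase, had 660.0 and 1204 at 4% against 458.4, 1137 and 1288 in air. Its D arrays were low at both oxygen levels, and its difference was 0.02 with a 95% interval of -1.04 to 1.09.

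The largest difference among the 17 genes was that of AT5G10040, followed by AT4G10270, AT4G33560, HRA1 and AT2G17850. AT5G10040, an uncharacterised gene, had signals of 680.9 and 732.2 at 4% against 5.98, 6.88 and 9.13 in air, an increase of 5.75 ± 0.765 (adjusted p = 0.000687). AT4G10270 and AT4G33560 belong to a family named for its response to wounding. AT4G10270 had 1335 and 862.6 at 4% against 24.9, 19.5 and 27.8 in air, and AT4G33560 had 402.3 and 374.6 against 7.52, 4.58 and 6.09. They rose by 5.18 ± 0.737 (adjusted p = 0.00123) and 5.04 ± 0.586 (adjusted p = 0.000129). Without the 4% array D, AT4G10270 had an adjusted p of 0.0898. AT2G17850, which encodes a rhodanese-like protein, had 444.4 and 449.7 against 12.4, 7.25 and 13.2 (4.76 ± 0.74, adjusted p = 0.00322), and its adjusted p was 0.106 and 0.0932 without the 4% arrays D and F. In each of these genes the 2 groups lay far apart, and the 4% signals of AT4G33560 and AT2G17850 were close to each other.

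AT4G24110, also uncharacterised, had 468.5 and 317.0 at 4% against 20.2, 13.6 and 7.34 in air. It rose by 4.37 ± 0.618 (adjusted p = 0.00123), with 0.0898 without the 4% array D. AT3G27220, which encodes a kelch repeat protein, had 391.8 and 361.0 against 25, 20.2 and 22.4. Its increase of 3.75 ± 0.363 had the smallest adjusted p of all, 2.51e-05, and differed little between the pairs, at 3.68 within D and 3.69 within F. AT5G44730, a hydrolase of the haloacid dehalogenase type, had 562.7 and 400.6 against 72.4, 67.9 and 55.1 and rose by 2.76 ± 0.294 (adjusted p = 5.2e-05).

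CML38 encodes a calmodulin-like calcium sensor that is known to enter RNA granules under low oxygen. Its signals were 283.1 and 310.2 at 4%, against 9.93, 30.7 and 25.6 in air. The groups were well apart, with the air array D the lowest. It rose by 3.52 ± 0.621 (adjusted p = 0.015). The adjusted p was 0.237 without the 4% array D, 0.342 without the 4% array F and 0.131 without the air array D, and it was 0.0582 with quantile normalization and 0.0562 with median centring. AT1G76640, the neighbouring gene on the chromosome and a close calmodulin-like relative (CML39), had dim signals of 2.46 and 24.7 at 4% against 0.695, 4.12 and 10.2 in air, which overlap.

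In a further set of genes the air arrays differed by letter. AT4G27450, whose product resembles an aluminium-induced protein, had 2139.7 and 1891 at 4% against 230.7, 419.1 and 429.2 in air and rose by 2.52 ± 0.314 (adjusted p = 0.000311). AT1G19530 had 1754 and 1666 against 192.1, 424.7 and 296.1 and rose by 2.54 ± 0.478 (adjusted p = 0.0287). AT1G33055 had 1449.6 and 1215 against 91.3, 192.1 and 143.8 and rose by 3.23 ± 0.624 (adjusted p = 0.0373). In each of these 3 genes the air array D was the lowest of the air arrays, and the difference within D was larger than within F, for example by 3.15 within D and 2.47 within F in AT1G19530 and by 3.90 within D and 3.03 within F in AT1G33055. AT1G33055 lost its call whichever array was left out (adjusted p 0.0598 to 0.688), and AT1G19530 lost it without any array other than the air array E (0.112 to 0.482).

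AT4G30380, which RefSeq lists under the synonym EXLB2, was the gene with the smallest difference among the 17. It had signals of 12.1 and 5.33 at 4% and 0.513, 0.347 and 0.331 in air. All air signals and the 4% signal of array F were below the pseudocount of 6. The difference of 1.16 ± 0.169 (adjusted p = 0.00149) is therefore smaller than the ratio of the signals, but whether such dim signals were above background is unknown. It was 0.42 with a pseudocount of 24, 2.35 with 1.5 and 0.83 without the 4% array D. In the limma fit of the 2 h arrays alone the adjusted p was 0.362. AT4G30380 alone passed in a list of 29 expansin and xyloglucan endotransglucosylase genes, found by their annotated names, which may not be complete. The median of that list was -0.04, and its range ran from -0.59 to 1.16. The next largest value was EXPB2 at 0.44, with a 95% interval of -0.48 to 1.37.

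Of 50 genes known from other work to be induced by hypoxia, 28 had a probe set annotated to them alone. Of these, 15 rose, 24 had both 4% arrays above all air arrays, and 27 had a difference above 0. The shares among all genes were 0.127%, 6.9% and 54.1%. The list was chosen with earlier results of these data known. The median difference of the 28 was 2.17, compared with 0.02 for all genes. The 2 genes that rose outside this list were AT3G11930 and AT4G30380. Among the 13 that did not pass, AT4G39675 had 1531 and 1261 at 4% against 184.9, 554.4 and 250.3 in air (2.21 ± 0.921, adjusted p = 1), and AT4G17670 had 309.9 and 160.2 against 108.0, 50.4 and 75.5 (1.51 ± 0.448). AT4G39675 passed with the letter as a block, and AT4G17670 did not. HEMA2, a gene of tetrapyrrole synthesis, had 57.0 and 55.4 against 70.1, 48.4 and 57.2, with an interval of -0.51 to 0.43. AT3G10020 had 328.4 and 709.7 against 267.3, 790.7 and 518.1, with both D arrays low, and its interval of -1.46 to 1.48 was wide.

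**Figure D3:**
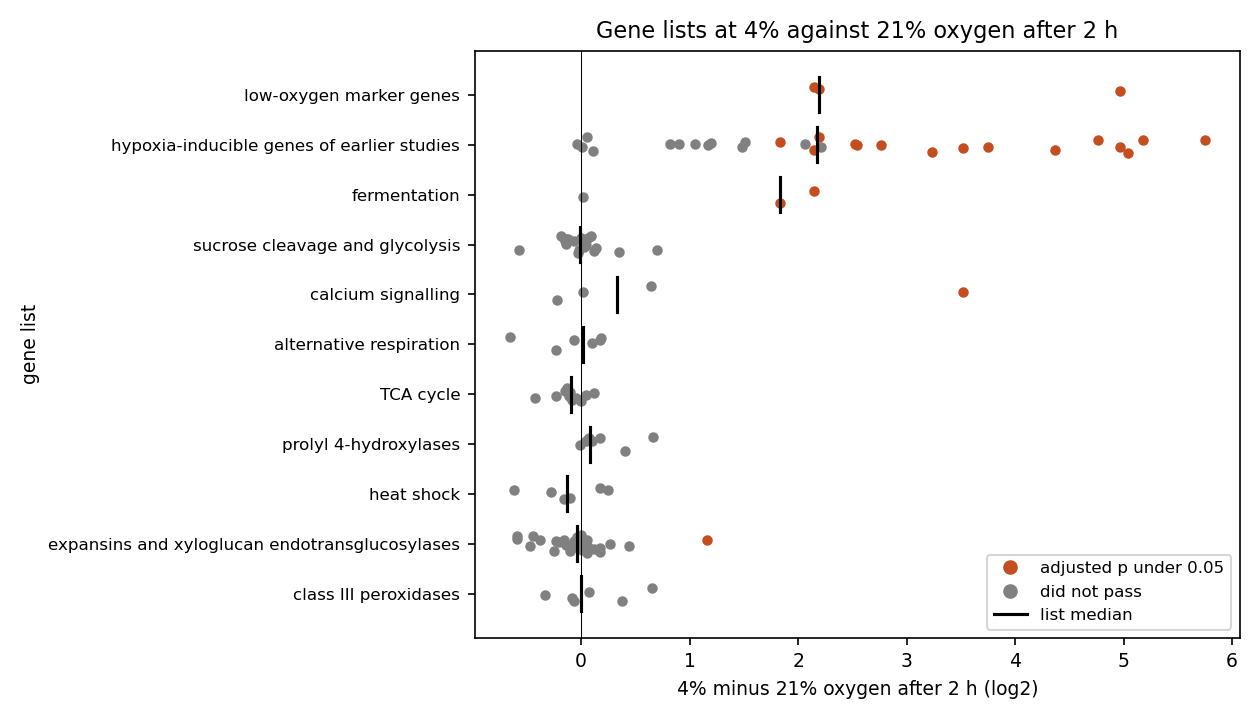
Difference between 4% and 21% oxygen (log2) of each named member of the 11 lists with at least 3 measured members. Orange points passed the adjusted test, grey points did not, and the black bar is the list median, which is 2.17 for the hypoxia-inducible genes and between -0.13 and 0.33 for the 8 lists other than the marker, hypoxia and fermentation lists.

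Just outside the threshold, AT5G66985 had 1466 and 1335 at 4% against 358.6, 318.2 and 319.9 in air. Its difference of 2.06 ± 0.416 was nearly equal within D (2.01) and F (2.04), with an adjusted p of 0.058. The next genes higher at 4% without overlap were AT4G14980 (2.04, adjusted p = 0.202), AT1G23850 (1.01, 0.242), AT3G02555 (1.13, 0.28), AT3G23170 (1.48, 0.306) and AT1G03610 (1.41, 0.321). With the letter as a block in limma, the adjusted p was 0.00173 for AT5G66985, 0.00174 for AT4G14980 and 0.00932 for AT3G23170, which then passed. It was 0.124 for AT1G23850, 0.0579 for AT3G02555 and 0.459 for AT1G03610, which did not. AT3G02555 lies next to LBD41 on the chromosome, a gene of the conserved hypoxia set that was not analysed here. On the lower side, the kinesin gene AT1G18550 had 2.84 and 1.7 at 4% against 17.6, 14 and 12 in air (-1.31 ± 0.265, adjusted p = 0.058). These signals are dim, and the 4% signals were below the pseudocount. With the letter as a block in limma, AT1G18550 had an adjusted p of 0.165. The MATE-type transporter gene AT1G61890 had 107.4 and 121.7 against 152.5, 237.7 and 184.7 (-0.69 ± 0.255, adjusted p = 1).

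Outside fermentation, no measured gene of the central pathways of carbon use passed the test. Of 52 listed genes of sucrose cleavage and glycolysis, 18 had an annotated probe set. None of the 18 passed, and their median difference was -0.01. The rest of the list, including the sucrose synthase genes SUS1 and SUS4, was not read, so the response of the whole pathway is unknown. TPI encodes triosephosphate isomerase and GAPC2 a cytosolic glyceraldehyde-3-phosphate dehydrogenase. TPI had 2328 and 2200.1 at 4% against 2324, 2198 and 2368 in air, with an interval of -0.51 to 0.47. GAPC2 had 2650.5 and 2442 against 2513, 2314 and 2584, with an interval of -0.49 to 0.58. In 4 of the 18, AT5G56350, AT1G20950, AT1G12000 and the enolase gene ENOC, both 4% arrays lay below all air arrays, with differences of -0.15 to -0.07, and in 1 both lay above them (5.59% and 6.9% of all genes). That 1 was the fructokinase gene AT2G31390, with 2583 and 2041 against 1562, 1222 and 1475 (0.70 ± 0.303, adjusted p = 1 with limma).

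Of 29 listed genes of the TCA cycle, which oxidises pyruvate in mitochondria, 12 were measured. None of the 12 passed, 3 had a difference above 0 (54.1% of all genes did) and the median was -0.09. The lowest value was SDH2-2, an iron-sulphur subunit of succinate dehydrogenase, with 285.1 and 312.9 at 4% against 397.6, 470.2 and 355.7 in air (-0.43, 95% interval -1.14 to 0.27). Of 14 listed genes of alternative respiration 6 were measured, and none passed. NDB2, an external NADH dehydrogenase of mitochondria, had 184.1 and 164.8 against 291.2, 291.5 and 256.9, with no overlap (-0.66 ± 0.259, adjusted p = 1 with limma). The difference of NDB2 was -0.64 within D and -0.62 within F.

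Prolyl 4-hydroxylases use oxygen as a substrate to modify cell wall proteins. Of 13 listed genes, 8 were measured and none passed. A difference above 0 was found in 7 of the 8, and in 54.1% of all genes. Their median was 0.09, and 0.03 with median centring. AT1G20270 had 66.6 and 62.6 at 4% against 35.6, 44.6 and 36.4 in air (0.66 ± 0.205, adjusted p = 1 with limma). Of 19 listed heat shock genes 6 were measured and none passed, with a median of -0.13 and a range of -0.62 to 0.25. A search of annotated names found 6 class III peroxidases, enzymes of the cell wall, and may have missed other members. None of the 6 passed, with a median of 0.00. Their summed signal at 4% was 1200.3 (D) and 2023 (F), against 941.0 (D), 2318 (E) and 1913 (F) in air, so that it followed the letter at both oxygen levels. Of 4 measured calcium signalling genes, CML38 alone passed, and CML37 and CML23 had intervals of -1.64 to 1.20 and -0.84 to 0.88. The medians of glycolysis, alternative respiration and the peroxidases changed sign between scalings of the arrays, and those lists therefore have no direction.

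Compared with 1% oxygen after 2 h, the 17 genes had lower signals at 4% in nearly every array. Both 4% arrays were below both 1% arrays (letters E and F) in 16 of the 17, against 12.4% of all genes. The exception was AT4G10270, with 1335 and 862.6 at 4% against 1316 and 1471 at 1%. Their median difference from air was 3.23 at 4% and 3.89 at 1%, and all 17 passed at 1%, where 46 genes rose (0.344% of those tested). These differences from air share the 3 air arrays.

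In the direct test of 4% against 1%, 2 genes were lower at 4% (0.015%), none was higher, and 176 had an unadjusted p under 0.05 (1.32%). AT4G30380 had 12.1 and 5.33 at 4%, against 74.1 and 58.9 at 1% (-2.33 ± 0.185, adjusted p = 7.88e-07). AT3G23170 had 46 and 74.9 at 4% against 382.9 and 505.1 at 1% (-2.78 ± 0.393, adjusted p = 0.00491). The 4% signals of AT3G23170 were above air signals of 10.4 to 25.8 without passing that test. The call of AT3G23170 was lost without the 4% array D (adjusted p = 0.256), without the 1% array F (0.0758) and with quantile normalization (0.103). In a fit of the 2 h arrays alone neither gene passed (0.132 for AT4G30380, 0.287 for AT3G23170), and without the 1% array F 7 genes were lower at 4%. For the other 16 genes that rose, the intervals bound the difference: it was -0.37 with an interval of -2.06 to 1.31 in AT4G10270, -0.80 with -1.69 to 0.08 in PDC2 and -1.12 with -1.80 to -0.45 in AT5G44730. AT4G17260 differed by -0.72 (-1.17 to -0.27, adjusted p = 1).

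Compared with 8% oxygen after 2 h (letters C and F), both 4% arrays were higher in all 17 genes, an order seen in 10.9% of all genes. The 17 were chosen for high values at 4%, which favours this order. No gene passed in either direction in the direct test with limma, and 99 had an unadjusted p under 0.05 (0.741%). PDC2 had 924.5 and 780.9 at 4% against 294.8 and 388.7 at 8% (1.31 ± 0.424, adjusted p = 1), and AT4G17260 had 581.8 and 433.3 against 253.5 and 266.9 (0.93, interval 0.48 to 1.39). AT4G30380 had 12.1 and 5.33 at 4% and stayed at 0.673 and 0.772 at 8%, close to its air signals (1.09, adjusted p = 0.124). AT1G33055 had 1449.6 and 1215 at 4% against 845.9 and 776.0 at 8%, with an interval of -0.72 to 2.13. Against air, 3 of the 17 passed at 8%, AT4G33560, AT3G27220 and AT4G27450, and no other gene did (0.0225% of those tested).

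**Figure D4:**
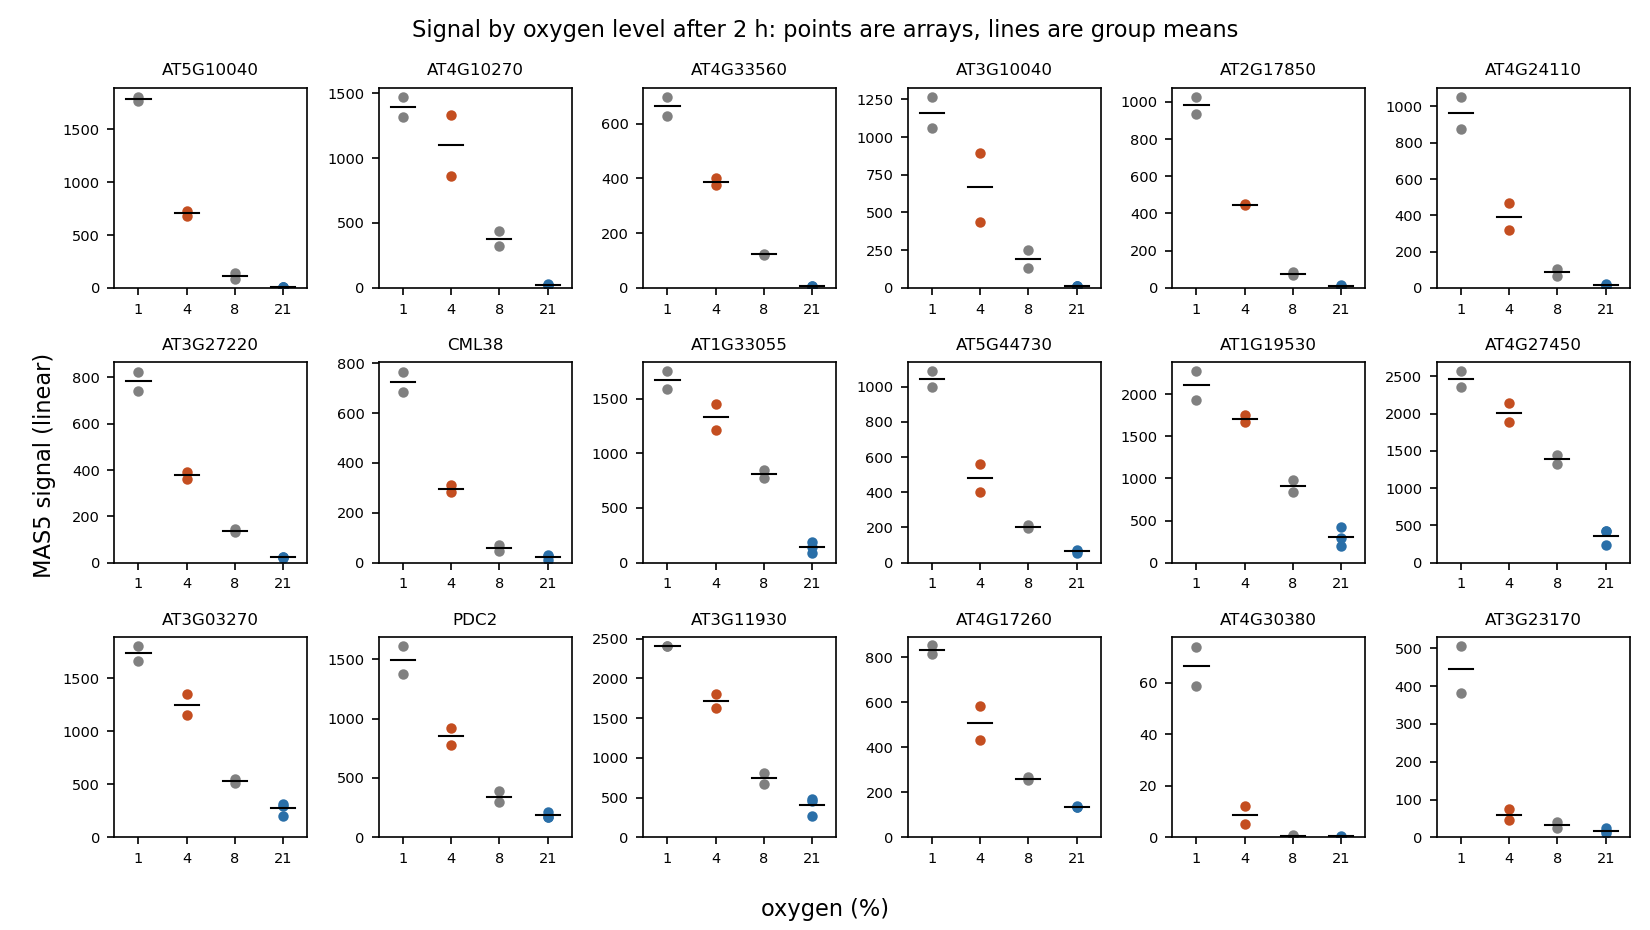
MAS5 signal (linear axis, from 0) after 2 h at 1%, 4%, 8% and 21% oxygen for the 17 genes that rose and for AT3G23170, with 1 point per array (2 at 1%, 4% and 8%, 3 at 21%) and a line at the group mean. The 4% arrays (orange) lie below both 1% arrays in every gene but AT4G10270, and AT4G30380 and AT3G23170 lie nearer to air (blue) than to 1%.

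The duration of 4% oxygen was compared as a difference of differences. The response after 2 h was set against the response after 0.5 or 48 h, each with air of its own duration. After 0.5 h the letters were D and F at 4% and C, F and G in air. After 48 h they were B and F at 4% and A, B and F in air. The letters thus differed between the groups compared, and their part in these differences was not tested. No gene passed in either test with limma, with 99 genes at an unadjusted p under 0.05 for 0.5 h (0.741%) and 156 for 48 h (1.17%). The median difference from air of the 17 genes was 2.25 after 0.5 h, 3.23 after 2 h and 1.75 after 48 h, and 6, 17 and 4 of them passed. Among all genes, 0.0449% rose after 0.5 h and 0.0374% after 48 h. The 17 were chosen at 2 h, which favours larger values there.

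The genes did not all follow that order. Signals of HRA1 were 944.6 and 451.7 at 0.5 h, 894.4 and 437.3 at 2 h, and 190.4 and 173.9 at 48 h. Its response after 2 h differed from that after 0.5 h by 0.06 ± 0.992 (SE). AT4G10270 had differences from air of 5.35, 5.18 and 4.99 after 0.5, 2 and 48 h, and passed at each. AT2G17850 had differences of 1.75, 4.76 and 3.18, and its response after 2 h exceeded that after 0.5 h with an interval of 0.82 to 5.19 (adjusted p = 1). HRU1 had differences of 1.19, 2.19 and 2.70 and passed at 2 and 48 h.

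Signals of PDC2 at 4% were 603.1 and 425.5 at 0.5 h, 924.5 and 780.9 at 2 h, and 208.3 and 330.2 at 48 h. Its difference from air was 1.37, 2.15 and 0.96, and it passed at 2 h only, while the difference between 2 and 48 h did not pass (1.20, interval 0.05 to 2.34). AT4G27450 and AT1G19530 were brighter at 4% after 48 h than after 2 h, with 3364 and 2597 after 48 h for AT4G27450 and 4450.0 and 2597 for AT1G19530. Their air arrays were brighter too after 48 h, from 799.1 to 1388 in AT4G27450 and from 888.1 to 2158 in AT1G19530, and the difference of AT4G27450 from air was 1.59 after 48 h, against 2.52 after 2 h. AT4G30380 had 1.14 and 0.223 after 0.5 h and 0.483 and 1.04 after 48 h at 4%, which lay within or near its air signals.

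**Figure D5:**
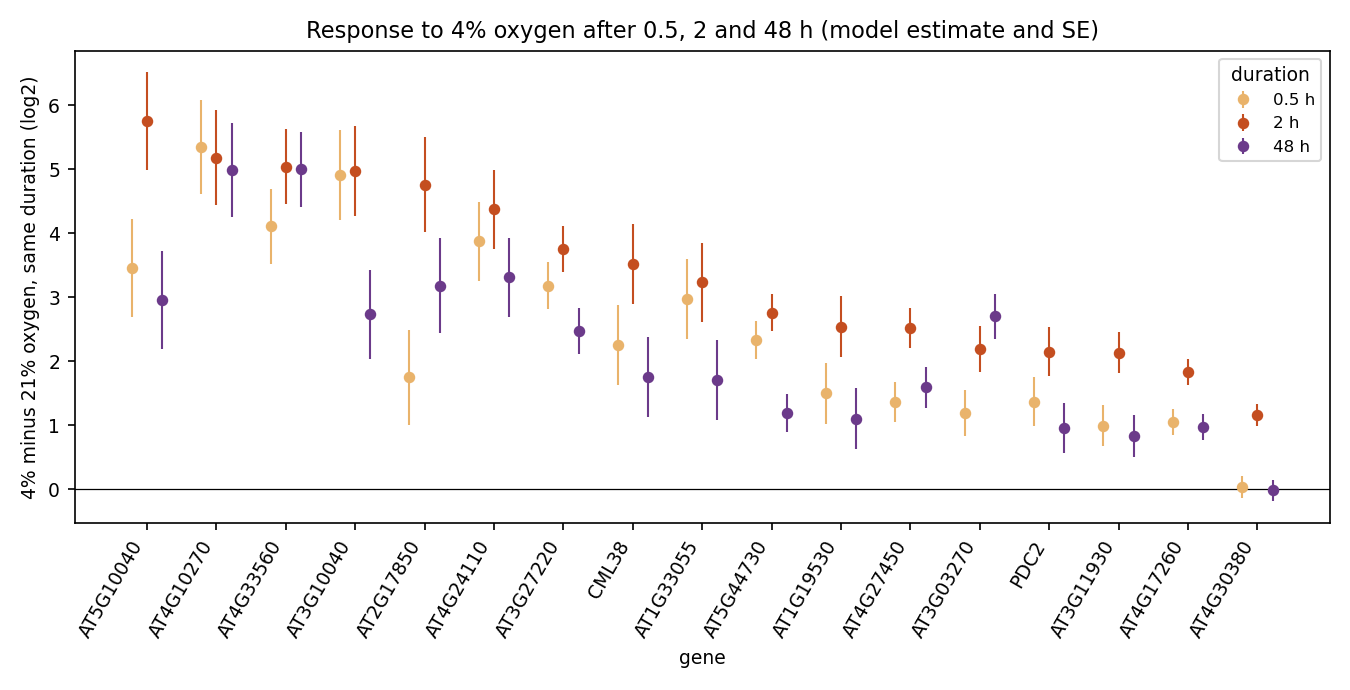
Difference between 4% and 21% oxygen of the same duration (log2, model estimate with SE) for the 17 genes after 0.5, 2 and 48 h. AT4G10270 lies near 5 at all 3 durations, HRU1 (AT3G03270) has its highest value after 48 h, and AT4G30380 has values of 0.03, 1.16 and -0.02.

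In a second fit over all 22746 probe sets that are not controls, 33 were higher at 4% (0.145%) and none was lower. Of the 33, 17 were those of the named genes (0.126% of such probe sets), 16 had no gene named for them (0.183%) and none carried several genes. The 16 had increases of 1.31 to 5.51. Probe set 267024_s_at had 956.7 and 652.9 at 4% against 12.3, 9.35 and 12.9 in air, and probe set 264953_at had 3169 and 2815 against 99.7, 55.7 and 105.2.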

How the data were processed

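The deposited values are MAS5 intensity signals of 28 arrays, per the submitters' processing notes, and each array's mean, trimmed by 2% at both ends, is 100. The MAS5 version and the detection calls are not given in the sources used here, so whether a dim probe set was above background is unknown, and the number of arrays limits precision. Of 22810 probe sets, 64 controls were left out, 13513 had 1 gene, 503 several and 8730 none by the platform annotation, and 13484 of the 13513 matched RefSeq TAIR10.1. A gene with several probe sets (146 genes) was represented by its brightest.

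With limma 3.58.1 in R 4.3.3, log2(signal + 6), 6 being the rounded 20th percentile, was modelled by group means of all 28 arrays, leaving 16 residual degrees of freedom. Moderated two-sided tests used eBayes with its intensity trend. SE and 95% intervals are the model's. P-values were adjusted by Benjamini-Hochberg over the 13513 probe sets, with a threshold of 0.05. The code was tested on simulated data. The letters were not taken as pairs: 5 of 8 same-letter pairs at 2 h had deviations correlated above 0.1 (-0.117 to 0.689). The pairs of 4% with 21% correlated at 0.689 (D) and 0.594 (F), and every same-letter pair below 0.1 held the 1% array F. With the letter as a block, 27 genes were higher at 4% than at 21% and 1 was lower.

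Named genes were all that passed without overlap of the groups, the 6 nearest the threshold in each direction, those past it in the other comparisons, the marker genes and up to 3 members of each list by p. Other genes named with values, such as TPI, GAPC2, HEMA2, AT3G10020, AT4G39675, AT4G17670, EXPB2, CML23, AT5G56350, AT1G20950, AT1G12000 and ENOC, were chosen after their values were seen. Members, lists, tests and the rule were chosen with earlier results of these data known, so that no list is independent evidence of its direction. Of 21 lists, 11 had at least 3 measured members. The others had 2 or fewer, and only single members of them are named. Alternatives covered pseudocounts of 1.5 and 24, quantile normalization, median centring, a filter on the dimmest 40%, no trend, fewer arrays, each array left out and the letter as a block. Promoter sequences were not analysed here.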

Additional observations from a re-analysis of the deposited data

How the results depend on the processing

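The count of 17 genes higher at 4% than at 21% oxygen stayed within 1.5 times (14 to 19) under both other pseudocounts, quantile normalization, median centring, no intensity trend, the filter on the dimmest 40% and a fit of the 2 h arrays alone. With the letter as a replicate block it was 27, including all 17, AT5G66985 (adjusted p = 0.00173), AT4G14980 (0.00174), AT3G23170 (0.00932) and AT4G39675, and 1 gene (AT5G03370) was lower. In a replicate block within 2 h, chosen after seeing the data, it was 28, including 16 of the 17. With the 5 arrays alone it was 10, a fit with fewer samples. Leaving out 1 array in turn gave 7 (without the 4% array D) to 16 (without the air array E). Among all probe sets, the replicate block gave 51 higher and 2 lower, and a pseudocount of 24 and quantile normalization each gave 1 lower. For 4% against 1%, the 2 lower genes became 1 after the filter on dim genes, which removed AT4G30380, 1 with quantile normalization, 3 with the replicate block, which added AT5G42200 (-1.74, adjusted p = 0.0205), and 0 with the 2 h arrays alone, and 1 to 7 with an array left out (7 without the 1% array F, 1 without the 4% array D). For 4% against 8%, the count of higher genes was 2 with the 2 h arrays alone and 0 to 1 with an array left out, the 1 without the 4% array F. For the response after 2 h against 0.5 h, higher genes numbered 1 in the fit of those durations alone and 0 to 1 with an array left out, again without the 4% array F. Against 48 h, higher genes numbered 0 to 1 (without the 4% array F at 2 h) and lower genes 0 to 3 (without the 4% array F at 48 h) with an array left out, and 1 gene (LCR67) was lower with a pseudocount of 24. Where no construction is named, the cause was not tested. Across 254 values of the 17 genes under these alternatives, 212 kept their call, 42 kept their direction but not their call, 27 of them with an array left out, and 0 reversed. With no detection calls, differences of genes below the pseudocount, such as AT4G30380 and AT1G18550, are limited by background.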
